A study of Mus musculus with 41 samples.

Results

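Bdnf encodes brain-derived neurotrophic factor, and the called regions around it were taken from all 27 lists of chromatin immunoprecipitation peaks of the series. The members are every peak inside a window of 100 kb on mouse chromosome 2, from 109490000 to 109590000 in build mm9. The gene lies on the plus strand at about 109514900 to 109567200 in this window. The window held 61 of the 488881 peaks (0.0125%), of which 43 were regions of histone marks and 18 were sites of Pol II or LSD1. In all, 18 lists had at least 1 peak there and 9 had none. No peak value was used to choose them.

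Primary cortical neurons of the mouse were grown to day 10 in culture and exposed to KCl at 55 mM, which depolarizes neurons, for 0 h or 1 h. Groups labelled LSD1n WT and LSD1n KO differ in LSD1n, the neuronal isoform of the demethylase LSD1. Both genotypes were measured at 0 h and 1 h for H3K4me1, H3K36me3, H4K20me1 and Pol II, and H3K4me2 was measured in LSD1n WT at both times. An antibody against LSD1 was used in neurons labelled wild type at 0 h and 1 h, in LSD1n WT at 0 h, and in LSD1n KO with no time label. An antibody against the Flag tag was used at 0 h and 1 h in neurons labelled R26/LSD1n or R26/LSD1c, which give the tagged forms Flag-LSD1n and Flag-LSD1c. The labels give neither the sex and age of the animals, nor how many animals or cultures a library pools, nor what drives the tagged forms. The 10 GRO-seq and 4 RNA-seq samples of the series are not analysed here. With positions alone and no gene annotation of mm9, neither the loss of LSD1n nor the neuronal identity of the cells was checked.

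BDNF is a secreted neurotrophin that acts through the receptor TrkB and is known for its part in synaptic plasticity. Its gene has several promoters, most of which open with their own first exon that is spliced to a shared 3' exon with the coding sequence. Depolarization is known to raise transcription from some of these promoters more than from others, in part through sites for CREB and related factors. LSD1 removes methyl groups from H3K4me1 and H3K4me2, the marks of enhancers and promoters, and is often found with the repressor REST and its partner CoREST. H4K20me1 and H3K36me3 are known as marks of the bodies of transcribed genes.

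RefSeq lists 7 start sites for Bdnf on build GRCm38.p6, in a gene of 52.3 kb, the same span to 3 digits as the approximate bounds in mm9. Counted from the first, the other starts lie at 2.33, 17.7, 18.3, 19.7, 34.7 and 48.2 kb. Peaks are given below by their distance from the approximate gene start in mm9. No coordinate was converted between the builds, and whether distances inside the gene are equal in both was not checked. The promoters at 0, 2.33 and 17.7 kb are shown, because LSD1 sites lie near the first and Pol II sites near the other two. Each is on the plus strand of GRCm38.p6 and runs from 250 bases before the start to 50 after it. Capitals mark TCACGTAA in the first and CATATG and TCACGTCA in the last.

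Bdnf start at 0 kb, chr2:109674450-109674749: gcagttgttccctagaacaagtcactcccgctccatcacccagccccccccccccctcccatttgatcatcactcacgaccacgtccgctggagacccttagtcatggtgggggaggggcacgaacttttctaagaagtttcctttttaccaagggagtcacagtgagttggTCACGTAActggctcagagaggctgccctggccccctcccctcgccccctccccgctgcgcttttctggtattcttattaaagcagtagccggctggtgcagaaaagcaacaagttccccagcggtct
Bdnf start at 2.33 kb, chr2:109676782-109677081: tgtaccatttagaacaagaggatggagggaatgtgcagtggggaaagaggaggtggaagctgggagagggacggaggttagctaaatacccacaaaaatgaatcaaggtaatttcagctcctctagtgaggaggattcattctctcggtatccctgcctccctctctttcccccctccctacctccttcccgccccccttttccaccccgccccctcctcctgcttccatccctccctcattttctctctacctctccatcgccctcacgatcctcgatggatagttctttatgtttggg
Bdnf start at 17.7 kb, chr2:109692186-109692485: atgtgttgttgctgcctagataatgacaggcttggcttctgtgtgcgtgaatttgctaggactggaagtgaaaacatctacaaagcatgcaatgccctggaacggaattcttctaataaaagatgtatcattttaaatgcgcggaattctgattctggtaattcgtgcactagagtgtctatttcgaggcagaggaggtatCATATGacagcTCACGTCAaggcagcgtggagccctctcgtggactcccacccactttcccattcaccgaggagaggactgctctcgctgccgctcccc

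TCACGTCA differs from the full cyclic AMP response element TGACGTCA and holds the shorter CGTCA. The start at 17.7 kb carries it 38 bases before the start, in what is known as promoter IV, the best studied of the activity-dependent promoters. Both strands were searched, and 0.441% of the 32851 promoters of the same table hold TCACGTCA. CGTCA, which overlaps it, was in 1 of the 7 Bdnf promoters and in 20.8% of all. CATATG, an E-box, was in 2 of the 7 and in 3.91% of all, at 49 bases before the start at 17.7 kb and 189 before the start at 18.3 kb. TCACGTAA was in the first promoter alone, 78 bases before its start, and in 0.180% of all. TGACGTCA, CACGTG, TTCAGCACC from the REST site and TATAAA were in none of the 7, and in 1.79%, 7.15%, 0.371% and 13.6% of all promoters. These motifs were chosen with the Bdnf sequences known, and a match describes letters, not binding.

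**Figure D1:**
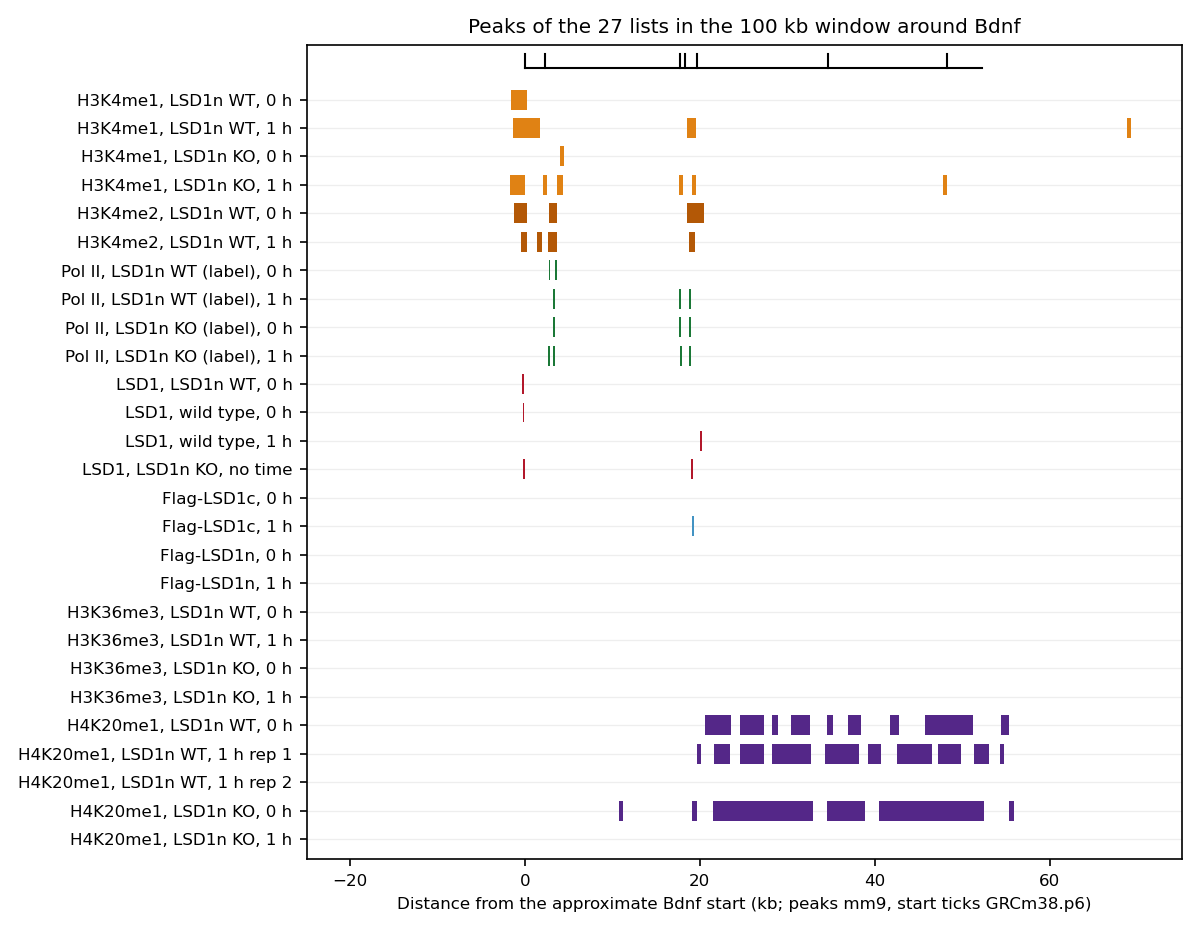
Called regions of the 27 lists (rows, 1 library each) by distance in kb from the approximate start of Bdnf in mm9; the black line is the gene and its ticks are the 7 RefSeq starts, placed by their distances in GRCm38.p6. H3K4 marks, Pol II and LSD1 gather near 0 to 4 kb and near 18 to 20 kb. H4K20me1 lies over the gene from about 21 kb to its end in 3 of 5 lists, with a small region past the end in each.

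Peaks of H3K4me1, H3K4me2, Pol II and LSD1 fell into 2 clusters at the 5' part of Bdnf. Joined where they lay within 1 kb, 20 peaks from 13 lists formed an upstream cluster from -1.73 to 4.50 kb. Another 14 peaks from 10 lists formed a downstream cluster from 17.6 to 20.5 kb. In mm9 these span 109513168 to 109519402 and 109532493 to 109535402. The upstream cluster holds the RefSeq starts at 0 and 2.33 kb, and the downstream cluster those at 17.7, 18.3 and 19.7 kb, by distance. Of these marks only H3K4me1 had a peak elsewhere in the window, 1 at 47.8 to 48.3 kb in KO at 1 h and 1 at 68.8 to 69.3 kb in WT at 1 h. By distance, the KO peak spans the RefSeq start at 48.2 kb. H4K20me1 was left out of this joining after its long regions were seen, and with it the window held 6 joined elements rather than 4.

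The antibody against LSD1 called a site just before the first start of Bdnf in 3 of its 4 lists. In wild type at 0 h it spanned 109514654 to 109514854, in LSD1n WT at 0 h 109514630 to 109514830, and in LSD1n KO, with no time label, 109514672 to 109514872. The centres lay at most 42 bp apart, and the sites ended at -0.046, -0.070 and -0.028 kb from the approximate start. The site was therefore called in the libraries of both LSD1n labels. It stood at place 240 of 22663 in the wild type list, 178 of 13400 in LSD1n WT and 476 of 13709 in LSD1n KO, so within the first 3.47% of each list. HOMER usually lists peaks from the most tags to the fewest, but the headers do not state the order. Of all wild type sites at 0 h, 20.7% (20.2 to 21.2, 95% exact Clopper-Pearson interval) were likewise called in both LSD1n lists.

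After 1 h of KCl the wild type list had no LSD1 site near the first start. Its only site in the window lay in the downstream cluster, at 20.03 to 20.23 kb (109534928 to 109535128, place 8841 of 18457). The number of sites was thus 1 at both times, but near the first start at 0 h and in the downstream cluster at 1 h. Of the wild type 0 h sites also called in LSD1n WT and LSD1n KO, 70.1% (68.7 to 71.4) were not called in wild type at 1 h, so Bdnf was with the majority. Among tiles of 100 kb, the genome cut into windows of the size of this one, 25.7% were covered by wild type sites 2-fold more at 1 h or at 1 h alone. The share for 0 h was 40.5%. The 1 h library was shallower, with 19266695 tags against 24377237, and each group is 1 library.

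LSD1n KO had a further site in the downstream cluster, at 109533895 to 109534095 (19.0 to 19.2 kb, place 5111 of 13709), and LSD1n WT had none there. Over the window this gave 0.402 kb of sites in KO and 0.201 kb in WT. A difference of 2-fold or more in this direction was met in 32.1% of the tiles that either list covered, and the opposite in 28.4%. The KO library was deeper, with 31532169 tags against 17993780, the libraries have different title prefixes, and the part of either in the extra site was not tested.

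Flag-LSD1n had no site in the window at 0 h or at 1 h. Over the genome it had 940 sites in 734 tiles at 0 h and 4438 sites in 3423 tiles at 1 h. The share of all tiles of the genome without a site was not counted. Of the tiles covered by Flag-LSD1n at either time, 83.9% were covered 2-fold more at 1 h or then alone and 6.34% less. Flag-LSD1c had no site in the window at 0 h, with 3922 sites in 3150 tiles over the genome. At 1 h it had 1, at 109533983 to 109534183 (19.1 to 19.3 kb, place 1782 of 5480). Of the tiles covered by Flag-LSD1c at either time, 45.8% were covered 2-fold more at 1 h or at 1 h alone, and 22.4% less. The Flag-LSD1c site overlapped the downstream LSD1 site of LSD1n KO by 113 bp, an overlap found for 15.2% (14.3 to 16.2) of the Flag-LSD1c sites at 1 h. The LSD1 site of wild type at 1 h lay 744 bp further on, while 43.7% of the Flag-LSD1c sites at 1 h overlapped a wild type LSD1 site of that time. No tagged form had a site at the first start, where the LSD1 antibody called its sites. Most LSD1 sites were like this, since between 1.41% and 4.99% of the wild type sites at 0 h overlapped a site of each of the 4 Flag lists. At 1 h, 40.7% of tiles covered by either form were covered by Flag-LSD1c 2-fold more or alone, and 25.1% by Flag-LSD1n. At 0 h, when neither had a site at Bdnf, these shares were 81.3% and 7.95%. The Flag-LSD1n and Flag-LSD1c libraries have different title prefixes, so form and prefix cannot be told apart.

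**Figure D2:**
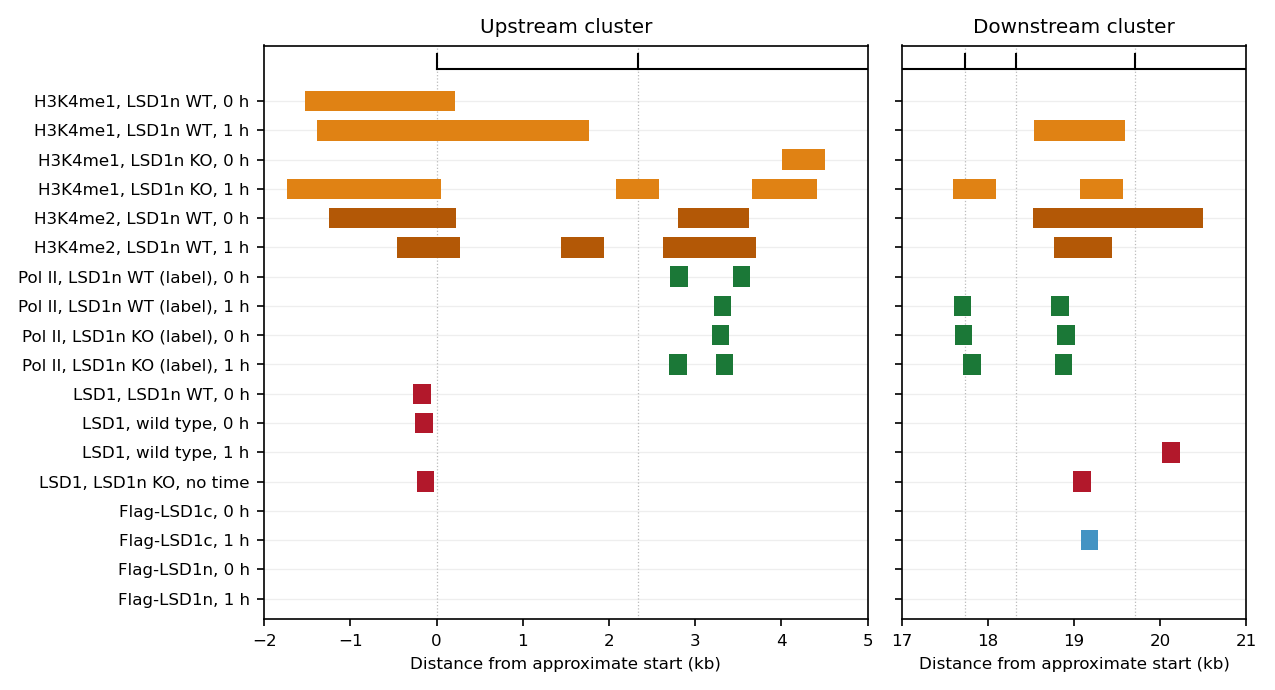
The upstream and downstream clusters at Bdnf in 18 lists (rows), as called regions against distance in kb from the approximate start in mm9; dotted lines are RefSeq starts by their distance in GRCm38.p6. LSD1 sites (red) stand at the first start in 3 lists, and Pol II sites (green) near 3 kb and, in 3 of 4 lists, near 18 to 19 kb.

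Pol II was called in the upstream cluster in all 4 lists and in the downstream cluster in 3 of them. In all 4 Pol II files the list name carries the other genotype than the sample label does, so every Pol II genotype here is that of the label and is uncertain. In the library labelled WT at 0 h there were 2 sites, at 2.71 to 2.91 kb and 3.43 to 3.63 kb. At 1 h that label had 3 sites, at 3.22 to 3.42, 17.6 to 17.8 and 18.7 to 18.9 kb. The label KO had 3 sites at 0 h, at 3.19 to 3.39, 17.6 to 17.8 and 18.8 to 19.0 kb. At 1 h it had 4, at 2.70 to 2.90, 3.24 to 3.44, 17.7 to 17.9 and 18.8 to 19.0 kb.

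The site at 17.6 to 17.9 kb spans or adjoins the distance of the RefSeq start at 17.7 kb, whose sequence with TCACGTCA is printed above. In the label WT this site and the one near 19 kb were called at 1 h and not at 0 h. In the label KO both were called at both times, and their 0 h sites overlapped their 1 h sites by 102 and 176 bp. Of all Pol II sites labelled WT at 1 h, 22.3% (21.6 to 23.0) had no 0 h site within 1 kb. Of the sites labelled KO at 0 h, 20.1% (19.5 to 20.8) had no site labelled WT within 1 kb. Sites of either kind were thus common, and the pair at Bdnf has no replicate. The 0 h library labelled WT was the shallowest Pol II library, with 14622895 tags against 16651225 for the label KO. Both 0 h libraries had the same threshold of 11 tags per site, and both 1 h libraries one of 13.

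Over the window Pol II sites covered 0.402 kb at 0 h and 0.603 kb at 1 h in the label WT, a log2 ratio of 0.58. In the label KO they covered 0.603 and 0.804 kb, a log2 ratio of 0.42. KO over WT by label was 0.58 at 0 h and 0.42 at 1 h. None of these 4 ratios reached 2-fold. With KCl, 23.5% (label WT) and 25.8% (label KO) of tiles were covered 2-fold more at 1 h or then alone, and 12.3% and 11.9% less. In KO over WT by label, 21.4% (0 h) and 23.0% (1 h) of tiles were covered more and 12.0% and 11.1% less. With the genotype of the list names the last ratios become -0.58 and -0.42, and the shares of more and less change places.

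Pol II was not called at the first start of Bdnf in any list. The nearest Pol II site began 2.70 kb after it. The LSD1 site there overlapped H3K4me2 in full at both times. Of the wild type LSD1 sites at 0 h that lay in H3K4me2 and were called in LSD1n WT and LSD1n KO as well, 7.39% (6.48 to 8.38) likewise had no Pol II site of the 4 lists within 1 kb. In the downstream cluster the LSD1 site of LSD1n KO overlapped the Pol II site labelled KO at 0 h by 13 bp. Such an overlap was found for 11.7% of the LSD1 sites of LSD1n KO. The other LSD1 site and the Flag-LSD1c site there overlapped no Pol II site. Over the genome, 26.2% to 30.8% of wild type LSD1 sites at 1 h and 59.5% to 62.4% of Flag-LSD1c sites at 1 h overlapped a site of each Pol II list.

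H3K4me2, measured in LSD1n WT alone, marked both clusters before and after KCl. At 0 h it had 3 regions, at -1.25 to 0.225 kb, 2.80 to 3.63 kb and 18.5 to 20.5 kb. At 1 h it had 4, at -0.459 to 0.270, 1.44 to 1.94, 2.63 to 3.71 and 18.8 to 19.4 kb. All 3 regions of 0 h overlapped a 1 h region by at least 1 bp, against 69.3% (68.6 to 70.0) of the whole list. Over at least 50% of their length 33.3% of the 3 did so, and no whole-list share is given for that overlap. The regions at the first start and in the downstream cluster were narrower at 1 h, 0.729 against 1.48 kb and 0.677 against 1.98 kb. The region near 3 kb was wider, 1.08 against 0.821 kb, and it held all 6 Pol II sites called there in full. The window as a whole went from 4.28 to 2.99 kb, a log2 ratio of -0.52, near the median of -0.33 over the 7621 tiles covered at both times. A loss of 2-fold or more was met in 29.2% of tiles and a gain in 9.75%, and Bdnf had neither. The 1 h library had 6990017 tags, fewer than the 9418008 at 0 h.

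H3K4me1 covered a greater length of the first 25 kb of Bdnf at 1 h than at 0 h in both genotypes. In LSD1n WT this length went from 0.215 to 2.83 kb, and in LSD1n KO from 0.501 to 2.31 kb. By distance, the LSD1n WT regions held the first RefSeq start and no other at both times. In LSD1n WT it had 1 region at 0 h, at -1.53 to 0.215 kb. At 1 h it had 3, of which 1 reached from -1.39 to 1.77 kb and 1 from 18.5 to 19.6 kb, in the downstream cluster. The length in the window went from 1.75 to 4.72 kb, a log2 ratio of 1.44. Ratios of this size or above were found in 10.5% of the 11210 tiles covered at both times, where the median was 0.39. A gain of 2-fold or more, with tiles covered at 1 h alone, was met in 32.6% of tiles.

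In LSD1n KO, H3K4me1 had 1 region of 0.501 kb at 0 h, at 109518902 to 109519402 in the upstream cluster, and none at the first start. At 1 h there were 6 regions, with 1 at -1.73 to 0.048 kb, 1 at 2.08 to 2.58 kb and 1 at 3.66 to 4.41 kb in the upstream cluster. The downstream cluster held 2 more, at 17.6 to 18.1 and 19.1 to 19.6 kb. The length went from 0.501 to 4.54 kb, a log2 ratio of 3.18, which 2.02% of the 11604 tiles covered at both times reached or passed. The median of these tiles was 1.24, and 72.3% of tiles were covered 2-fold more at 1 h or at 1 h alone. The ratio was 1.83 with lists of equal length, 2.20 in the first 25 kb, 2.49 inside the gene bounds and 2.58 by number of peaks. With peaks within 5 kb merged it was 4.11. The 95% point of the tiles was 2.77, from covered length in whole lists and whole tiles without such merging. It was thus not recomputed for these settings. The direction was that of most of the genome in these 2 libraries. The 1 h library was the deepest of the 27, with 34859557 tags and 12.3% of them in regions, against 22970480 and 5.89% at 0 h. The part of depth in this ratio was not tested.

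At 0 h the KO list thus lacked the H3K4me1 region at the first start that the WT list had, 0.501 against 1.75 kb in the window. The 1 WT region and the 1 KO region did not overlap. A lack of overlap was common, since over the whole lists 47.1% of WT regions overlapped a KO region. Of all KO regions, 53.1% overlapped a WT region. The log2 ratio of KO over WT was -1.80. Ratios as low were found in 4.58% of tiles covered in both, and 28.7% of tiles were covered 2-fold less in KO or in WT alone and 19.4% more. Counted inside the gene bounds alone the ratio turned to 1.22, since the WT region lies mostly before the approximate start. At 1 h the lists covered 4.54 and 4.72 kb (log2 ratio -0.06), with a tile median of 0.62. Of all tiles 44.7% were covered 2-fold more in KO or in KO alone, and 6.01% less. By number of regions, 6 against 3, the direction at 1 h was the opposite. The 2 genotypes had 22970480 and 23973912 tags at 0 h.

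**Figure D3:**
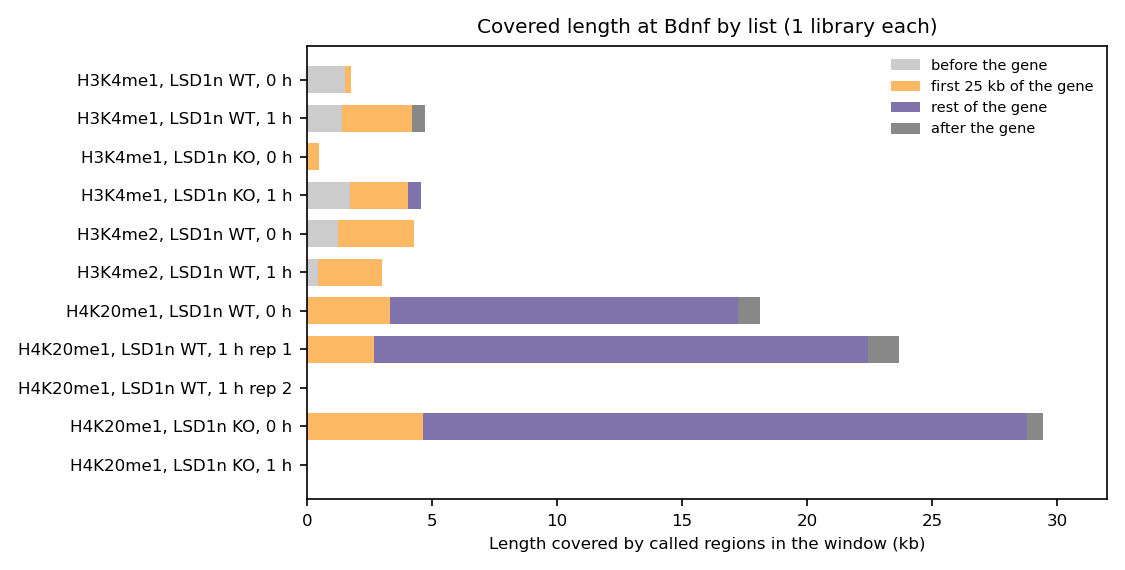
Length in kb covered by called regions in the Bdnf window, for H3K4me1, H3K4me2 and H4K20me1 (bars, 1 library each), split by position relative to the gene. H4K20me1 reaches 18.1, 23.7 and 29.5 kb in 3 lists, mostly in the gene after its first 25 kb, and is 0 in the other 2.

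H4K20me1 lay mostly over Bdnf after its first 25 kb. By distance, the RefSeq starts at 34.7 and 48.2 kb fell inside its regions in all 3 lists that had any, and the start at 19.7 kb in 2 of them. The starts at 0, 2.33, 17.7 and 18.3 kb fell in no H4K20me1 region. In LSD1n WT at 0 h, 9 regions covered 18.1 kb of the window, of which 17.2 kb lay inside the gene. They covered 50.9% of the gene after its first 25 kb. In LSD1n KO at 0 h, 6 regions covered 29.5 kb, of which 28.8 kb lay inside the gene, and 88.4% of that later part was covered. In WT at 1 h, replicate 1 had 10 regions over 23.7 kb and covered 72.3% of that part, while replicate 2 had none. The KO list at 1 h had none either. Only 10.4% to 12.3% of the tiles covered in each of the 3 lists with regions held as much.

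The bounds of the covered part were alike in the 3 lists. From the first to the last region wider than 1 kb it ran from 20.6 to 51.2 kb in WT at 0 h, from 21.5 to 52.5 kb in KO at 0 h and from 21.7 to 53.0 kb in WT replicate 1 at 1 h. It began after the H3K4me2 region of the downstream cluster and ended near the approximate gene end at 52.3 kb. That end rests on the width limit of 1 kb. Each of the 3 lists also had 1 narrower region past the gene. These lay at 54.4 to 55.3 kb in WT at 0 h and 55.4 to 55.9 kb in KO at 0 h. In WT replicate 1 at 1 h it lay at 54.2 to 54.7 kb. Inside the part bounded by the wider regions, called regions made up 56.3%, 89.8% and 72.3% of the length. The KO regions were wider, up to 11.9 kb, against 5.52 kb in WT at 0 h and 4.52 kb in WT replicate 1. A small region of 0.661 kb in KO at 0 h, at 19.1 to 19.7 kb, lay in the downstream cluster and overlapped H3K4me2, as did 36.2% (35.5 to 36.9) of WT H3K4me2 regions at 0 h with some KO region of that time. WT replicate 1 at 1 h also had a region of 0.501 kb there, at 19.7 to 20.2 kb. Between the 2 clusters, the KO list at 0 h alone had a region of 0.501 kb, at 10.7 to 11.2 kb.

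Of the H4K20me1 length in WT at 0 h, 90.3% was also covered in KO at 0 h, against 85.4% over the genome. Of the KO length 55.5% was covered in WT, against 45.5% over the genome. The log2 ratio of KO over WT in the window was 0.70, below the median of 1.05 over 5957 tiles covered in both, and 58.0% of tiles were covered 2-fold more in KO or in KO alone, and 5.77% less. Bdnf was thus within the common range of these 2 libraries. By number of regions the direction was the opposite, 6 against 9, since the KO regions were longer. The share of tags in regions was 19.6% in KO and 10.5% in WT.

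At 1 h the genotypes cannot be compared at Bdnf. The 2 WT lists held 23.7 and 0 kb, and the KO list 0 kb. Between the WT replicates, 95.6% of tiles were covered 2-fold less in replicate 2 or in replicate 1 alone, and 1.73% more. Against the WT mean, 76.9% of tiles were covered less in KO and 4.74% more. The libraries without a region were those with the title prefix hs70l2, with 0.881% (WT replicate 2) and 2.98% (KO) of tags in regions, against 10.2% in WT replicate 1. Within that prefix both genotypes were at 0. From 0 h to 1 h the KO list went from 29.5 to 0 kb, and 94.1% of tiles were covered 2-fold less at 1 h or at 0 h alone, and 1.72% more. In WT the mean of the 2 lists, 11.8 kb, gave a log2 ratio of -0.61, and replicate 1 alone 0.39. With that mean, 39.7% of tiles were covered 2-fold less at 1 h or at 0 h alone, and 12.2% more. Time and prefix cannot be told apart in KO or in WT. The WT library at 0 h had the prefix hs60l3, and those at 1 h had hs64l8 (replicate 1) and hs70l2 (replicate 2).

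**Figure D4:**
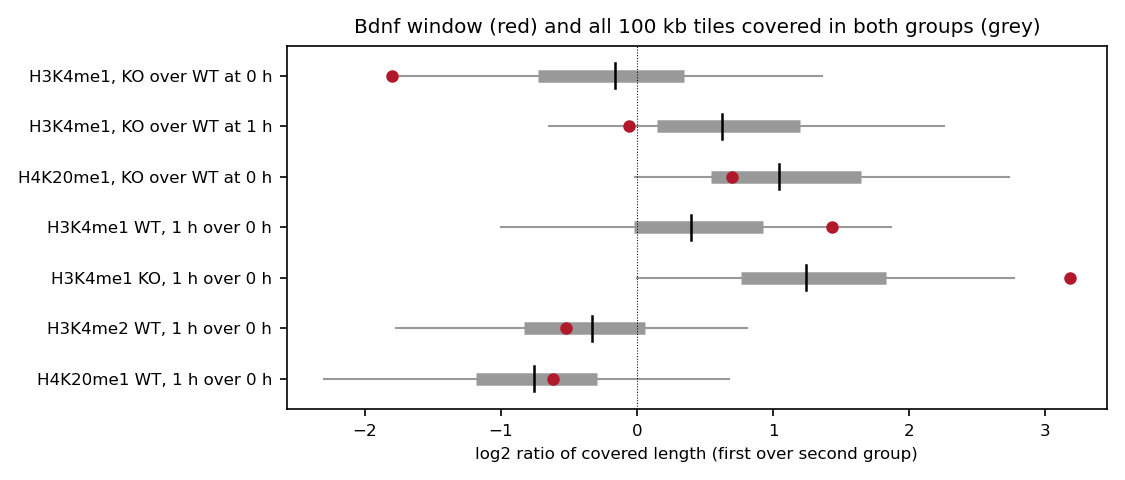
log2 ratios of covered length at the Bdnf window (red points) beside all tiles of 100 kb covered in both groups (black mark, median; grey bar, middle 50%; line, 5% to 95%), 1 library per group except the mean of 2 for H4K20me1 WT at 1 h. H3K4me1 in KO with KCl (3.18) lies above its line and H3K4me1 KO over WT at 0 h (-1.80) just below the lower end of its line.

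H3K36me3 had no region in the window in any of its 4 lists. Its nearest regions lay at least 145 kb after the window and 2353 kb before it. The WT lists held 11530 and 17465 regions over the genome (0 h and 1 h), with thresholds of 20 and 18 tags, in 4593 and 5578 tiles. The KO lists held 3685 and 3166 regions in 2279 and 2065 tiles. The share of all tiles of the genome without a region was not counted, so how common such an absence is was not tested. KO lists were shorter: 76.5% of tiles at 0 h and 89.6% at 1 h were covered 2-fold less in KO or in WT alone, and 7.94% and 3.2% more. With KCl, 48.3% of WT tiles were covered more and 15.0% less, and 33.4% of KO tiles more and 42.6% less. H4K20me1 was called in the window in 3 of its lists, and H3K36me3 in none of its own. How often H4K20me1 is called without H3K36me3 over the genome was not counted.

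Over all 24 pairs of groups, the Bdnf window was covered in neither group in 6. Among 9 genotype pairs it was covered 2-fold more or alone in KO in 1, the LSD1 pair, and less in KO in 2. The latter were H3K4me1 at 0 h and H4K20me1 at 1 h, where the WT replicates themselves held 23.7 and 0 kb. The share of all tiles for each pair is given with it above. Among 12 KCl pairs it was covered 2-fold more or alone at 1 h in 3 (H3K4me1 in both genotypes and Flag-LSD1c) and at 0 h alone in 1 (H4K20me1 in KO). As all groups but 1 hold 1 library, no difference was tested, and intervals cover counting error over peaks only.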

How the data were processed

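Bowtie and HOMER are named without versions, and build mm9, per the submitters' processing notes. Per the file headers, the authors merged 500 bp windows (spacing 1250 bp) into histone regions. Pol II and LSD1 were called as 200 bp sites, spaced by 500 bp, with 4-fold the tags of the local 10 kb. The false discovery rate was 0.001 throughout, and no control library is named. The deposited values are positions in bp, here counted from 1; the deposited score is 1 in every entry and was not used. Total tags, from the headers, ranged from 6990017 to 34859557 per library.

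Covered length, peak numbers and overlaps (at least 1 bp) came from scripts in Python 3.11.15 with numpy 2.4.6. Exact binomial intervals are from scipy 1.17.1. Plots were drawn in matplotlib 3.10.9. The functions were checked on simulated lists. Groups come from the sample titles. The background of each comparison is the genome cut into tiles of 100 kb, of which the Bdnf window is 1: a tile was counted when either group covered it, and called at 2-fold. No test between groups was run. Every joined element of the window is accounted for; those with Pol II, H3K4me2 or a form of LSD1 are described in full. Joining without H4K20me1 was added after seeing the data. The members and rules were chosen with earlier results of these data known. Promoter sequences are from RefSeq (GRCm38.p6), where all 7 Bdnf entries matched by symbol. The planned lists of the BDNF pathway and of cell type markers were not run, as no mm9 annotation was used here. The alternatives tried are described in the closing section.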

Additional observations from a re-analysis of the deposited data

How the results depend on the processing

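Of the alternative values of the 13 log2 ratios that could be formed, 46 stayed, 14 moved and 9 reversed. Those that stayed kept their direction and changed the ratio before log2 by at most 1.5 times. Those that moved changed it by more. H3K4me1 KO over WT at 0 h (-1.80) became 0 by number of peaks and 1.22 inside the gene bounds and in the first 25 kb. At 1 h (-0.06) it was 1.00 by number of peaks, 0.87 with peaks within 5 kb merged, -1.24 when regions at or under the median width of both lists were dropped, and -0.90 with equal list lengths. H3K4me1 with KCl in WT (1.44) was 3.72 inside the gene bounds and in the first 25 kb. In KO (3.18) it was 2.58 by number of peaks, 2.49 inside the gene bounds, 2.20 in the first 25 kb, 4.11 with peaks merged and 1.83 with equal list lengths. H3K4me2 with KCl (-0.52) was 0.42 by number of peaks and -1.68 among wider regions. H4K20me1 KO over WT at 0 h (0.70) was -0.58 by number of peaks and 0.11 with peaks merged. H4K20me1 with KCl in WT (-0.61) was -1.31 in the first 25 kb, -1.29 with equal list lengths and 0.39 without replicate 2; without replicate 1 no ratio could be formed. The Pol II ratios of genotype were -0.58 and -0.42 with the genotype from the list names. Leaving out peaks called with all 8 targets could change nothing, as the window held no H3K36me3 or Flag-LSD1n peak, and is not counted here. The number of elements (6) was 12 when only overlapping peaks were joined.

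Of the 3 WT H3K4me1 peaks at 1 h, 66.7% overlapped a KO peak, against 71.9% of the whole list. At an overlap of 50% of the peak 0% did. Of the 3 H3K4me2 peaks at 0 h, 100% overlapped a 1 h peak, against 69.3% of the whole list, and 33.3% at an overlap of 50%. No whole-list share at an overlap of 50% is set beside these. With peaks within 1 kb counted, the share rose to 100% in 7 cases and was 100% already in another 7. The 7 cases where it rose follow, as the window share by overlap and then that of the whole list. They rest on 2 to 10 peaks each. H4K20me1 of WT at 0 h in KO had 88.9% and 77.4%. Pol II labelled WT at 0 h had 0% and 74.0% in KO, and 0% and 72.0% at 1 h. These 2 sites lay 280 and 39 bp from a site labelled KO at 0 h. They lay 303 and 16 bp from a site labelled WT at 1 h. Of all Pol II sites labelled WT at 0 h, 85.4% had a 1 h site of that label within 1 kb. Pol II labelled KO at 1 h had 75% and 67.3% in WT, and 75% and 65.1% at 0 h. H3K4me2 at 1 h in 0 h had 75% and 79.6%. H4K20me1 of WT replicate 1 at 1 h in 0 h had 70% and 49.2%. All 96 alternative shares of tiles stayed within 1.5 times. Why values moved was not tested. No paired analysis was possible because the labels number no replicates: the numbers used here follow accession order and pair nothing, and all groups but 1 hold 1 library. Libraries differed in depth, and whether this bears on these values was not tested.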
